A study of Homo sapiens with 4 samples.

Results

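The genes described here encode non-collagen proteins of the extracellular matrix and the metalloproteases and inhibitors that remodel it. They were picked by gene symbol alone, as the laminin chains, nidogens, fibrillins, fibulins, latent TGF-beta binding proteins (LTBP), thrombospondins, fibronectin (FN1), tenascin C (TNC), SPARC and versican (VCAN), with the matrix metalloproteinases (MMP), the ADAM and ADAMTS proteases and the tissue inhibitors of metalloproteinases (TIMP). The deposited table held 76 such genes among 21372. The RNA came from NCI-H1299, an established human cell line that the labels describe as lung adenocarcinoma, grown with no treatment named. RNA immunoprecipitation sequencing was used, in which an antibody pulls down one protein with its bound RNA. 2 libraries were labelled P5CS, the immunoprecipitate (IP) of the proline-synthesis enzyme P5CS, and 2 were labelled input, the starting RNA. The design text of the series also names an anti-IgG control and another protocol (LACE-seq), but the 4 libraries carry neither name and no IgG library was analysed here.

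Basement membranes are thin sheets built from laminin trimers of an alpha, a beta and a gamma chain that nidogens link to other components. Fibrillins form microfibrils, which carry LTBPs and so hold latent TGF-beta in the matrix, while fibronectin, thrombospondins, tenascin C and SPARC change how cells attach. MMP, ADAMTS and many ADAM proteins are zinc-dependent proteases that cut matrix or cell-surface proteins, and TIMPs block them. The mRNAs of these secreted and membrane proteins are translated at the endoplasmic reticulum.

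The matrix mRNAs took a larger share of the IP than of the input. The 76 genes made up 1.09 and 1.08% of all counts in IP libraries 1 and 2, and 0.436 and 0.425% in input libraries 1 and 2. The groups did not overlap, and the mean share was 2.53-fold higher in the IP. With 2 libraries a group, an exact two-sided permutation test cannot give a p below 0.333, so single values such as this share have no test that could pass. Without RN7SL RNAs, RMRP and mitochondrially encoded genes in the denominator, the mean shares were 1.12% ± 0.0132 in the IP and 0.61% ± 0.00599 in the input (SD, n = 2 each). Of all counts, the 30 structural and adhesive genes took 0.901% ± 0.00267 in the IP and 0.314% ± 0.00373 in the input (SD, n = 2 each). The 46 protease and TIMP genes took 0.188% ± 0.00517 and 0.116% ± 0.00419 (SD, n = 2 each). With the smaller denominator the structural means were 0.929 and 0.446%, 2.08-fold higher in the IP. The protease and TIMP means were then 0.194 and 0.165%, 1.18-fold higher. For all 76 genes that fold was 1.84.

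Of the 76 genes, 67 had enough counts to be tested. Among these 67, 37 were higher in the IP, 1 was lower (TIMP1) and 29 passed in neither direction (quasi-likelihood test of edgeR on counts, Benjamini-Hochberg adjusted p under 0.05 over 17304 genes). Over all tested genes 25.4% were called higher and 25.6% lower. The tested matrix genes had a median log2 fold change of 0.75, against -0.01 for all genes. Of the 67, 22 were called and at least 2-fold higher, as were 15.0% of all tested genes, and none reached 4-fold. Both IP libraries lay above both inputs in 56 of the 76 genes and below them in 4, against 33.7% and 34.6% of all genes, and the libraries overlapped in the other 16. The authors' deposited table marks 34 of the 76 genes as enriched, and 19.0% of all genes. Whether the 2 libraries of a group stem from different cultures is not said in the labels. The p-values therefore reflect the spread between these libraries alone, and that spread may be technical. A difference here is one of relative abundance between IP and input RNA, and without a mock IP analysed here it cannot be told apart from RNA that a control antibody or the beads would also recover.

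**Figure D1:**
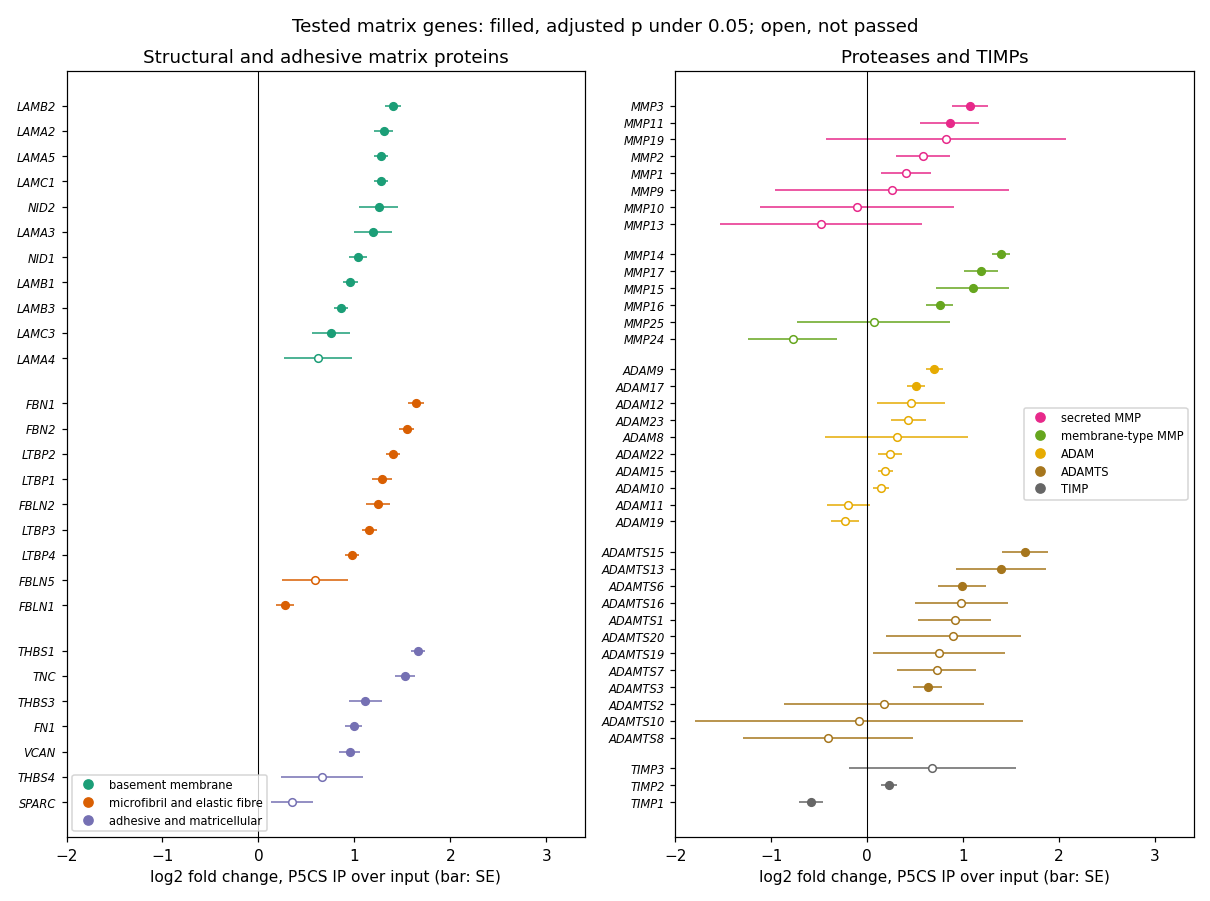
Log2 fold change of P5CS IP over input (x axis) for the tested genes, 1 of the 67 not drawn, grouped by role, with the standard error as a bar; filled points had an adjusted p under 0.05 and open points did not pass. All structural and adhesive genes drawn lie above 0, from 0.28 (FBLN1) to 1.66 (THBS1), whereas the proteases and TIMPs run from -0.78 (MMP24, not passed) to 1.65 (ADAMTS15).

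The cells expressed these genes over a wide range. In the input, 42 of the 76 had a mean level of at least 1 FPKM (counts divided by gene model length and library total), 17 had at least 10, and 13 lay under 0.1. On this per-length scale TIMP1 was the most abundant in the input, at 159 ± 9.56 FPKM, followed by LTBP4 at 96.4 ± 2.24, THBS1 at 62.5 ± 2.27 and LAMB3 at 60.5 ± 1.97 (SD, n = 2 each). In the IP the order of the leading genes was different, with THBS1 at 238 ± 12.6, LTBP4 at 228 ± 6.55, LAMB3 at 132 ± 4.19 and TIMP1 at 127 ± 28.8 FPKM (SD, n = 2 each). LAMB3 and TIMP1 in the IP lay within their spread of each other, as did THBS1 and LTBP4. THBS1 alone accounted for 17.6 and 16.5% of all counts of the 76 genes in the IP libraries and for 11.5 and 11.2% in the inputs, while TIMP1 accounted for 1.84 and 1.35% in the IPs and 5.2 and 4.9% in the inputs.

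**Figure D2:**
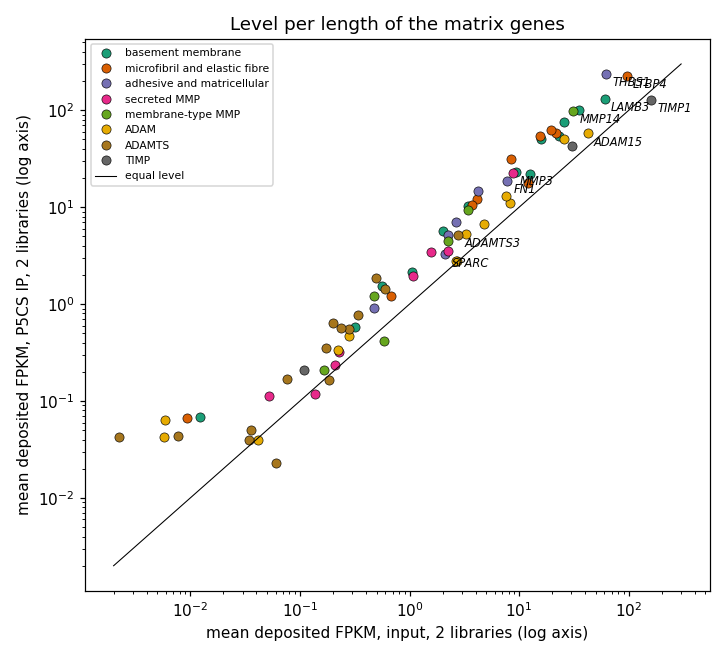
Mean deposited FPKM in the P5CS IP (y axis) against the input (x axis), 2 libraries each, both axes logarithmic; each point is a gene coloured by role, the line marks equal levels, and ADAMTS9, at 0 in the input, cannot be drawn. FPKM here is relative to each library's total count, and with total counts the median log2 fold change of all tested genes was 0.25. All 30 structural genes sit above the line, but the share of all genes above it was not counted. TIMP1, at 159 FPKM in the input and 127 in the IP, is among the genes below it, as is MMP24 (0.59 and 0.413).

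Laminin and nidogen mRNAs were higher in the IP almost throughout. The test called 11 of the 12 tested basement membrane genes higher and 0 lower, leaving 1 uncalled, at a median of 1.11 on the log2 scale (25.4% of all tested genes were higher). LAMB2, the beta-2 chain (chromosome 3, 49121114 to 49133050, GRCh38), gave 264 and 259.9 CPM (counts relative to the library size, scaled between libraries by TMM factors) in IP libraries 1 and 2 and 102 and 96.5 CPM in the inputs. Both IPs were above both inputs, a log2 fold change of 1.40 (SE 0.0812, adjusted p = 1.63e-07), the highest of the group. LAMB3, a beta chain of epithelial laminin, was the most abundant of the group per length. It gave 543 and 525 CPM in the IPs and 299 and 291 CPM in the inputs, a log2 fold change of 0.86 (SE 0.0731, adjusted p = 3.02e-06). LAMA3, the alpha-3 chain, stood at 1.19 (SE 0.197, adjusted p = 0.000419) with only 13.8 and 16.8 CPM in the IPs.

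The chains of the widely expressed laminins with alpha-5 were higher as well. These values, like those of other genes outside the naming rule, were picked out after they were seen. LAMA5 gave 748 and 813 CPM in the IPs and 328 and 315 CPM in the inputs (log2 fold change 1.28, SE 0.0767). LAMC1, the gamma-1 chain that most laminins share, gave 722 and 742 CPM against 294 and 311 CPM (1.27, SE 0.0738). LAMB1 stood at 0.96 (SE 0.0785). Per length the inputs held 34.8 ± 0.954 FPKM of LAMC1, 25.7 ± 1.0 of LAMA5 and 23.0 ± 0.712 of LAMB1 (SD, n = 2 each). The laminin alpha-2 gene LAMA2, known for its role in muscle, also passed (1.30, SE 0.0956). LAMA4 (0.62, SE 0.353, adjusted p = 0.17) did not pass, and LAMC3 (0.75, SE 0.199) lost its call without IP library 1 and after removal of the trend on length, fitted in each library across all genes (0.41, adjusted p = 0.114, edgeR). The nidogens NID1 (1.04, SE 0.0909) and NID2 (1.25, SE 0.202) were both higher. Within each library, which no scaling between libraries can touch, LAMB2 had 0.486 and 0.495 counts per LAMB3 count in the IPs and 0.340 and 0.332 in the inputs.

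Fibrillins and LTBPs, the microfibril proteins, were higher in all 6 cases. In the microfibril and elastic fibre group as a whole, the test called 8 of 9 genes higher and 0 lower, leaving 1 uncalled, at a median of 1.25 (25.4% of all tested genes were higher). FBN1, fibrillin-1 (chromosome 15, 48408313 to 48645709, GRCh38), the gene mutated in Marfan syndrome, gave 423 and 455 CPM in the IPs and 138 and 143 CPM in the inputs. The groups lay far apart, at a log2 fold change of 1.64 (SE 0.0798, adjusted p = 4.97e-08). FBN2, fibrillin-2, stood close by at 579.7 and 610.0 CPM against 210.0 and 197 CPM (1.55, SE 0.0775). LTBP4, the group's most abundant gene per length, gave 1103 and 1161 CPM in the IPs and 562 and 590.2 CPM in the inputs, a log2 fold change of 0.97 (SE 0.0716, adjusted p = 9.71e-07). The other LTBPs, which bind latent TGF-beta or resemble those that do, stood at 1.40 (LTBP2, SE 0.0744), 1.29 (LTBP1, SE 0.107) and 1.16 (LTBP3, SE 0.0799). LTBP2 had 0.439 and 0.406 counts per LTBP4 count in the IPs and 0.321 and 0.306 in the inputs.

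The fibulins, glycoproteins that bridge elastic fibres and basement membranes, were less uniform. FBLN2 gave 43.6 and 45.6 CPM in the IPs and 19.9 and 17.7 CPM in the inputs (1.25, SE 0.127, adjusted p = 1.2e-05). FBLN1 had the smallest change in the group, with 77.1 and 81.8 CPM in the IPs and 66.8 and 64.1 CPM in the inputs (0.28, SE 0.0940, adjusted p = 0.0283). Its call ended without IP library 2 (adjusted p = 0.0569), without input library 1 (0.0873) and without input library 2 (0.175), all with the same edgeR test, and once the trend on gene length was taken out (0.11). Within libraries FBLN2 had 0.565 and 0.557 counts per FBLN1 count in the IPs and 0.298 and 0.276 in the inputs. FBLN5 did not pass (0.59, SE 0.344, adjusted p = 0.18), and FBLN7 was not tested, with 10 counts in the IPs and 2 in the inputs.

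Among adhesive and matricellular genes 5 of 7 were called higher and 0 lower, 2 were not called, and the median was 0.99, beside 25.4% higher among all tested genes. THBS1, thrombospondin-1 (chromosome 15, 39581079 to 39599466, GRCh38), an activator of latent TGF-beta and an inhibitor of vessel growth, gave 1746 and 1636 CPM in the IPs and 543 and 525 CPM in the inputs. That is 3.17-fold higher (log2 fold change 1.66, SE 0.0718, adjusted p = 2.21e-08), with ADAMTS15 (1.65) and FBN1 (1.64) within its error. After removal of the trend on length THBS1 stood at 1.30, below MMP3 (1.41), ADAMTS15 (1.39) and MMP14 (1.32), with MMP17 also at 1.30. TNC, a protein of wound and tumour matrix, followed with 121 and 119.7 CPM against 38.8 and 44.8 CPM (1.53, SE 0.102, adjusted p = 4.99e-07). FN1, the fibronectin gene, gave 156 and 151 CPM in the IPs and 75.7 and 78.7 CPM in the inputs (0.99, SE 0.0857, adjusted p = 3.32e-06). VCAN, a large chondroitin sulfate proteoglycan, gave 64.7 and 58.1 CPM against 33.3 and 30.3 CPM (0.95, SE 0.113, adjusted p = 3.89e-05). In all 4 genes the IPs lay above both inputs.

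SPARC, a collagen-binding matricellular protein, did not pass. It gave 8.99 and 11.6 CPM in the IPs and 8.61 and 7.49 CPM in the inputs, a log2 fold change of 0.35 (SE 0.218, adjusted p = 0.208). With total counts in place of TMM scaling SPARC was called higher (0.62, adjusted p = 0.0352, edgeR), a setting that moved the median of all tested genes to 0.25. Of the other thrombospondins, THBS3 was higher (1.11, SE 0.168) and THBS4 did not pass (0.67, SE 0.428). THBS1 had 11.2 and 10.8 counts per FN1 count in the IPs and 7.18 and 6.66 in the inputs.

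**Figure D3:**
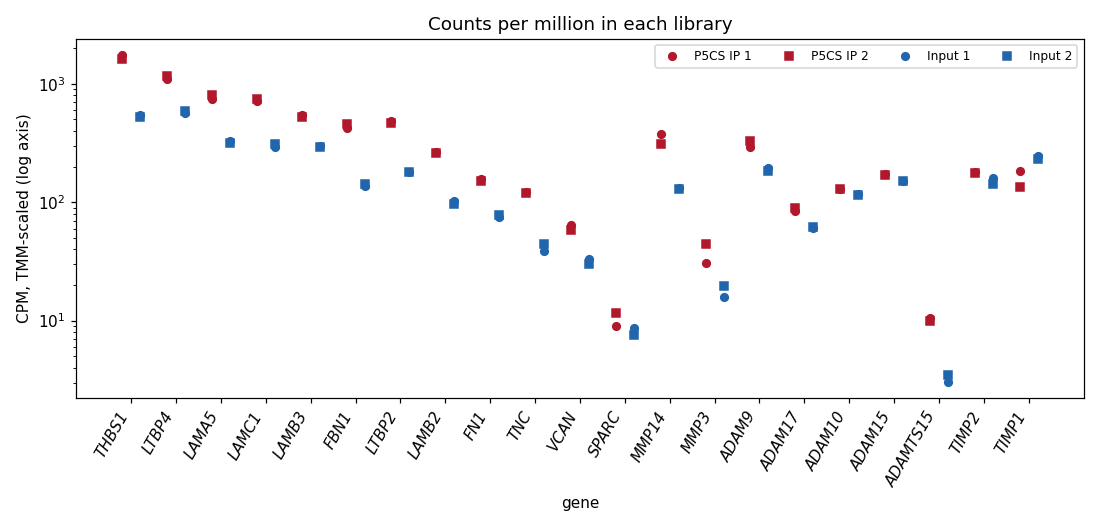
TMM-scaled CPM (logarithmic y axis) of 21 genes in each of the 4 libraries, IPs in red and inputs in blue, with circles for replicate 1 and squares for replicate 2. The IP points of THBS1 (1746 and 1636) and MMP14 (374 and 312) stand clear of their inputs, those of ADAM10 and ADAM15 lie just above them, and those of TIMP1 (183 and 134) lie below.

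Of the 14 MMP genes, all tested, 6 were called higher and 0 lower, a share of 42.9% against 25.4% of all tested genes. By role, 4 of 6 membrane-type genes were called higher (median 0.93) and 2 of 8 secreted genes (median 0.49). The share of secreted MMP genes called higher thus lay near that of all tested genes. With the length trend removed, 3 of 6 membrane-type genes (median 0.63) and 3 of 8 secreted genes (median 0.57) were higher, beside 23.9% of all tested genes. A difference between the 2 roles was not tested. MMP14 (MT1-MMP; chromosome 14, 22836585 to 22847758, GRCh38), a membrane-anchored collagenase that activates pro-MMP2, was the most abundant membrane-type MMP per length. It gave 374 and 312 CPM in the IPs and 131 and 129 CPM in the inputs, and both IPs were far above (1.40, SE 0.0965, adjusted p = 6.25e-07). Its gene model is 3805 nt long, and the value was 1.32 with the length trend removed. Of the other membrane-type genes, MMP17 (1.19, SE 0.180, adjusted p = 0.000234) was also higher. MMP16 (0.75, SE 0.141, adjusted p = 0.00099) was not called after removal of the trend on length (0.26, adjusted p = 0.171, edgeR), and MMP15 (1.10, SE 0.382, adjusted p = 0.0326) lost it without IP library 2 and without input library 2. MMP24 gave 1.15 and 2.15 CPM in the IPs and 3.27 and 2.39 CPM in the inputs and did not pass (-0.78, SE 0.460, adjusted p = 0.188). MMP24 overlaps 2 annotated RNAs of the opposite strand, and the sources used here do not give the strand setting of the counting, so its counts may include theirs.

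MMP3, stromelysin-1, led the secreted MMPs in level and in fold change. It gave 30.4 and 44.0 CPM in the IPs and 15.7 and 19.7 CPM in the inputs, a log2 fold change of 1.07 (SE 0.188, adjusted p = 0.00065). MMP3 has a short gene model (1822 nt), and its value was 1.41 with the length trend removed. MMP11 was higher too (0.86, SE 0.309, adjusted p = 0.0378), but not without IP library 1 or without input library 2, nor with DESeq2. The interstitial collagenase gene MMP1 (0.40, SE 0.261, adjusted p = 0.226) and the gelatinase gene MMP2 (0.58, SE 0.280, adjusted p = 0.109) did not pass, although both IP libraries were above both inputs in each. MMP1 was called higher after removal of the trend on length (0.70, adjusted p = 0.0465, edgeR), and MMP2 with total counts and without IP library 1. MMP13 had the lowest value, with 10 and 12 counts in the IPs and 25 and 8 in the inputs (-0.48, SE 1.05, adjusted p = 0.744), and the gelatinase gene MMP9 had 46 and 6 counts in the IPs and 42 and 2 in the inputs. In both genes the libraries of a group overlapped those of the other.

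The ADAM family includes sheddases, membrane proteases that release growth factors and receptors from the cell surface. Of its 10 tested genes 2 were called higher and 0 lower, at a median of 0.27. The share of 20.0% higher lies near the 25.4% of all tested genes. ADAM9 had the highest value, at 291 and 327 CPM in the IPs and 197 and 184 CPM in the inputs (0.70, SE 0.0866, adjusted p = 4.97e-05). ADAM17, which releases TNF and ligands of the EGF receptor, gave 84.7 and 88.8 CPM against 60.5 and 61.6 CPM (0.51, SE 0.0923, adjusted p = 0.000849), and was no longer called once the trend on gene length was taken out (0.17, adjusted p = 0.149, edgeR).

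ADAM10, the sheddase of Notch and the amyloid precursor, gave 129 CPM in both IPs and 118 and 114 CPM in the inputs, a log2 fold change of 0.15 that did not pass (SE 0.0830, adjusted p = 0.163). The sign of ADAM10 turned after removal of the trend on length (-0.37, adjusted p = 0.00325, edgeR), and it was called higher with total counts (0.41). ADAM15, the most abundant ADAM gene per length at 42.1 ± 0.456 FPKM in the input (SD, n = 2), gave 175 and 169 CPM in the IPs and 151 CPM in both inputs (0.19, SE 0.0793, adjusted p = 0.0706). It was called higher without IP library 2 (0.25, adjusted p = 0.0258) and with total counts (0.45, adjusted p = 0.000701, both edgeR). ADAM19 was the lowest, at 17.4 and 18.3 CPM against 20.4 and 21.5 CPM (-0.23, SE 0.146, adjusted p = 0.221). The value was 0.04 with total counts, and ADAM19 was called lower after removal of the trend on length (-0.55, adjusted p = 0.00882, edgeR). Within libraries ADAM17 had 0.658 and 0.69 counts per ADAM10 count in the IPs and 0.512 and 0.54 in the inputs.

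The ADAMTS proteases, secreted enzymes that cut proteoglycans, procollagens and other matrix proteins, were scarce in these cells. Of the 16 ADAMTS genes, none had a mean of 3 FPKM or more in the input. The test called 4 of the 12 tested genes higher (33.3%, against 25.4% of all tested genes) and 0 lower. ADAMTS3, a procollagen N-proteinase and the most abundant at 2.80 ± 0.317 FPKM in the input (SD, n = 2), gave 31.8 and 27.6 CPM in the IPs and 17.5 and 20.9 CPM in the inputs (0.63, SE 0.150, adjusted p = 0.00461). It was not called after removal of the trend on length (0.36, adjusted p = 0.0695, edgeR). ADAMTS15, a versican-cleaving enzyme, gave 10.4 and 9.96 CPM in the IPs and 3.03 and 3.48 CPM in the inputs, the highest value of any protease (1.65, SE 0.239, adjusted p = 0.000169). ADAMTS6 (0.99, SE 0.248, adjusted p = 0.0063) was higher as well. ADAMTS13, the protease of von Willebrand factor, stood at 1.40 (SE 0.473, adjusted p = 0.0296) on 96 and 126 counts in the IPs and 56 and 36 in the inputs, and lost its call without IP library 2, without input library 2 and with the length trend removed. ADAMTS8 was the lowest, with 26 and 14 counts in the IPs and 44 and 12 in the inputs (-0.41, SE 0.887, adjusted p = 0.739).

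Of the 3 TIMP genes 1 was lower, 1 was higher and 1 did not pass, beside 25.6% lower and 25.4% higher among all tested genes. TIMP1 (chromosome X, 47582436 to 47586789, GRCh38), the broad inhibitor of secreted MMPs, was the 1 gene of the 67 called lower. It gave 183 and 134 CPM in the IPs and 247 and 230.2 CPM in the inputs, and both IPs lay below both inputs (-0.59, SE 0.127, adjusted p = 0.00255). With total counts it was not called (-0.32, adjusted p = 0.0608), nor after removal of the trend on length (-0.09, adjusted p = 0.574, both edgeR). Without IP library 1 the value was -0.83 and without IP library 2 it was -0.35, both still called. TIMP1 has the shortest gene model of the tested genes, 1364 nt, and lies within SYN1, a gene of the opposite strand. TIMP2, which forms the complex of MMP14 with pro-MMP2, gave 178 and 177 CPM in the IPs and 160.2 and 143 CPM in the inputs (0.23, SE 0.0860, adjusted p = 0.0459). TIMP2 was not called after removal of the trend on length (0.08), with no count filter (0.23, adjusted p = 0.0506), without input library 1 (0.31, adjusted p = 0.0594) and without input library 2 (0.15, adjusted p = 0.383, edgeR). TIMP3, a matrix-bound inhibitor, was barely present, at 20 and 42 counts in the IPs and 32 and 10 in the inputs (0.68, SE 0.866, adjusted p = 0.555).

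Ratios of protease to inhibitor mRNA were taken within each library, so that no scaling between libraries enters. MMP14 had 2.04 and 2.33 counts per TIMP1 count in the IPs and 0.533 and 0.562 in the inputs. Against TIMP2, MMP14 had 2.09 and 1.76 counts in the IPs and 0.820 and 0.903 in the inputs. TIMP2 had 0.975 and 1.32 counts per TIMP1 count in the IPs and 0.650 and 0.622 in the inputs. TIMP1 has a gene model of 1364 nt and TIMP2 one of 4588 nt, and their log2 fold changes were -0.09 and 0.08 after removal of the trend on length. In all 3 ratios the IPs lay above both inputs, and with 2 libraries a group none can reach a p below 0.333 in an exact permutation test. Each ratio sets the gene with the higher log2 fold change over the one with the lower, so the 3 restate those values and add no separate result.

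Long gene models went with higher IP values, among these genes and in general. The 67 tested genes have gene models of 1364 to 15238 nt with a median of 5447 nt, against 3424 nt for all tested genes. Across the 67, log2 length and log2 fold change had a Pearson r of 0.40 and a Spearman rho of 0.37, against 0.24 and 0.27 across all 17304 genes. These are descriptions across genes that share the same 4 libraries. Among the 28 structural genes r was 0.54, and among the 39 protease and TIMP genes it was 0.16. Of models of 8000 nt or more, 45.3% of all tested genes were higher, and 10 of the 15 matrix genes of that length were. The 15 had a median log2 fold change of 0.99 against 0.46 for all genes of that length. Between 6000 and 8000 nt, 11 of 14 matrix genes and 38.8% of all tested genes were higher. Between 4000 and 6000 nt, 11 of 20 matrix genes and 32.4% of all tested genes were higher, with medians of 0.88 and 0.16. Between 2000 and 4000 nt, 4 of 14 matrix genes and 22.1% of all were higher, with medians of 0.47 and -0.08. Below 2000 nt, 1 of 4 matrix genes was higher and 1 lower, beside 10.2% and 35.0% of all. With the trend on length removed from each library, 31 of the 67 were higher and 2 lower (ADAM10 and ADAM19), beside 23.9% and 25.5% of all tested genes, and the median was 0.57 against -0.02. The structural genes then had 22 of 28 higher with a median of 0.79, against 24 of 28 in the main fit. The proteases and TIMPs then had 9 of 39 higher with a median of 0.36, near the 23.9% of all tested genes. Both lower calls were in this class. In the main fit it had 13 of 39 higher and 1 lower. Named genes still called but more than 1.5 times smaller included FBN1 (1.08), FN1 (0.57), VCAN (0.43), ADAM9 (0.40), LAMA2 (0.83), LAMA5 (0.78), LAMA3 (0.71) and ADAMTS6 (0.65).

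**Figure D4:**
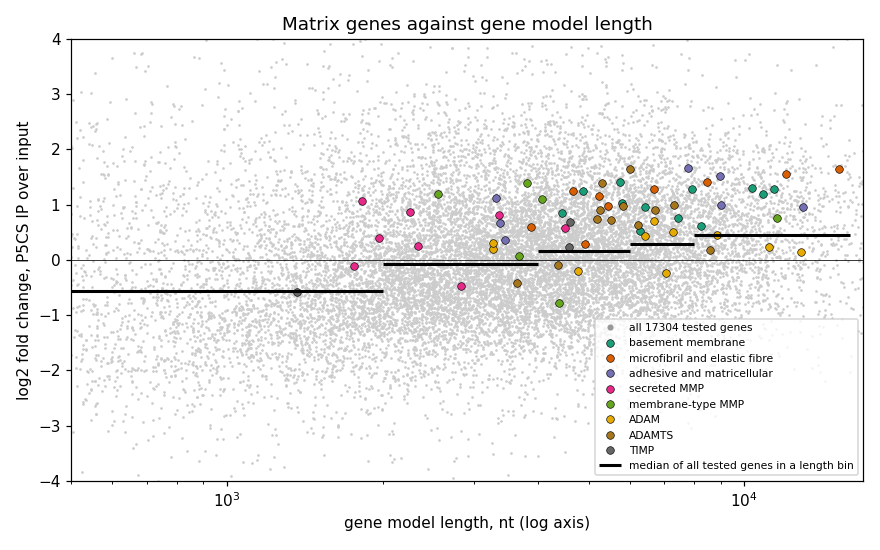
Log2 fold change of P5CS IP over input (y axis) against gene model length (logarithmic x axis, nt); grey points are all tested genes within the axes, coloured points the matrix genes by role, and black bars the median of all tested genes in each of 5 length bins. The bars climb from -0.57 below 2000 nt to 0.46 from 8000 nt, and most coloured points lie above the bar of their bin.

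How abundant a gene was set how well its change could be measured. The SE of the log2 fold change had a median of 0.0812 for the 23 tested genes with an input mean of at least 50 CPM, 0.174 for the 18 between 5 and 50 CPM and 0.479 for the 26 below 5 CPM. From 50 CPM upward, all 15 structural genes were higher, with log2 fold changes of 0.28 to 1.66. Of the 8 proteases and TIMPs at that level 4 were higher (MMP14, ADAM9, ADAM17 and TIMP2), 1 was lower and 3 did not pass (ADAM10, ADAM15 and ADAM22), with a median of 0.23 against 1.16 for the structural genes. ADAM22 stood at 0.24 and was called higher with total counts, with the replicate block, without IP library 1 and without input library 2. Its sign turned after removal of the trend on length (-0.25), where it was called lower if the block was added. Of all tested genes at that level 37.7% were higher and 43.5% lower. Below 5 CPM 5 of 26 matrix genes were called, all higher, and 15.6% of all tested genes at that level were higher.

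The 9 genes with too few counts to test were LAMA1, FBLN7, ADAM21, ADAM28, ADAM33, ADAMTS5, ADAMTS9, ADAMTS12 and ADAMTS17. They had 12 to 52 counts over all 4 libraries. ADAMTS9 had 4 and 16 counts in the IPs and 0 in both inputs, which allows up to 0.0798 and 0.0716 CPM there at 3 counts, and more if both mates of a read pair were counted. LAMA1 had 2 and 40 counts in the IPs and 8 and 2 in the inputs, so that 1 library supplied 40 of the 52.

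Genes of the matrix outside the rule were described by 3 lists. Of 47 tested other matrix glycoprotein genes, 21 were called higher and 2 lower, 24 were not called, and the median log2 fold change was 1.05. The lowest called value was that of FSTL1, a secreted relative of SPARC (-0.77, SE 0.110, adjusted p = 0.000142). The highest was that of NTN3, a netrin, which passed the count filter through the IPs alone, at 0.627 and 1.28 CPM against 0 and 0.0477 CPM in the inputs, so no fold is given. Of 44 tested genes of the wider protease system (other proteases, their activators and inhibitors, and crosslinking enzymes), 16 were called higher and 6 lower, 22 were not called, and the median was 0.38. These ran from WFIKKN1, which encodes a protein with protease-inhibitor domains (2.85, SE 0.615, adjusted p = 0.00259), to BSG, the membrane protein basigin that induces MMPs (-0.98, SE 0.0826, adjusted p = 2.79e-06). Of 27 tested collagen chains 13 were called higher and 0 lower, at a median of 0.91. The lowest called was COL6A2 (0.37, SE 0.077, adjusted p = 0.0022). The highest was COL11A2, at 1.20 and 0.378 CPM in the IPs and 0.0532 and 0.0477 CPM in the inputs, which also passed the filter through the IPs alone and is given without a fold. Of the tested genes, 3 of the glycoprotein list and 2 of the collagen list passed the filter that way, and 1 of each was called higher. Over all tested genes 25.4% were higher and 25.6% lower. These 3 lists are set beside the matrix genes with no test of a difference between lists.

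Library totals ran from 31489455 to 46339235 counts, and 85.8 to 86.4% of the counts between 1 and 30 were even. The floor of 3 counts covers counting error only. VIM, a mesenchymal marker, had 105859 to 181964 counts per library. Of 10 lung epithelial markers looked up, 5 were in the table, among them the keratins KRT8 and KRT18. NKX2-1 had 0 to 52 counts, and EPCAM had 0 in both IPs and 8 and 6 in the inputs. SFTPC, SFTPB, NAPSA and CDH1 were not in the table. Of 9 fibroblast markers 7 were in the table, and their summed level was 7.68 and 10.5 CPM in the inputs and 10.4 and 13.0 CPM in the IPs, with COL1A1 at 98 to 170 counts. RefSeq genes overlapped 51 of the 76 genes on one strand or the other, among them the readthrough gene ADAM15-EFNA4, MTX1 at THBS3 and WTAPP1 at MMP1 and MMP3. Reads in the shared stretches cannot be assigned without the strand, and their part in the results was not tested.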

How the data were processed

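The authors deposited 1 table for all 4 libraries with whole-number counts per gene, FPKM, and their own comparison: a normalised mean count (signal), a log2 fold change with its standard error, a test score (stat), p-values and a mark (other), all per the file headers. Tools named in the submitters' processing notes are STAR 2.7.10a, fastp 0.23.2, DESeq2 and featureCounts, on build hg38. Neither annotation nor strand setting is given in the sources used here. Columns whose name holds the word input went to the input libraries by number, and the rest to the IPs. All count columns carry the word Cyto, which no label explains. Of 21373 rows, 1 repeat was dropped. Dividing the deposited counts by FPKM gave whole-number gene model lengths. Coordinates (1-based) come from RefSeq GRCh38.p14, matched by gene identifier for all 76 genes.

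The test on counts used edgeR 4.0.16 under R 4.3.3 (glmQLFit and glmQLFTest after filterByExpr and TMM scaling, no block) and kept 17304 genes. The standard error is the log2 fold change over the root of F. P-values were adjusted by Benjamini-Hochberg over all tested genes. The script was tested on simulated counts. Of the 67 tested genes, 59 passed the filter's CPM minimum in all 4 libraries and 0 passed through 1 group alone. The length trend was a lowess curve (span 0.3) per library on log2 length, entered as an offset. Alternatives were total counts, RLE factors, DESeq2 1.42.0, other filters, a replicate block, the length trend removed, and each library left out in turn. The genes and lists were chosen with earlier results of these data known. Genes are named as the most abundant, the highest and the lowest of each role, plus the tested TIMPs, FN1, SPARC, VCAN, TNC, MMP14, ADAM10 and ADAM17; others were picked after their values were seen. Of the genes this rule names, 1 is not reported here, nor is 1 marker. The ADAMs were kept as 1 role, since protein sequences were not used here. Any ADAM without the zinc-binding sequence of the active proteases is therefore counted among the proteases.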

Additional observations from a re-analysis of the deposited data

How the results depend on the processing

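The count of matrix genes called higher (37 of 67) stayed between 31 and 44 over 13 alternatives, and 28 genes were called higher under all of them. Leaving out 1 library gave 33 to 38 higher, with 35, 34, 35 and 32 of the 37 genes kept, and 1 lower (TIMP1) in every case. The lower count was 0 with total counts, 2 with the length trend removed and 3 with the length trend removed and the replicate block. The 44 came with total counts, where 5604 of all 17304 tested genes were higher and 3223 lower. In the main fit these were 4400 and 4432. The 31 came with the length trend removed, where 4137 of all tested genes were higher and 4404 lower. The median log2 fold change of the tested matrix genes, 0.75, was 1.02 with total counts (all genes 0.25), 0.93 with a filter at a mean of 1 CPM, 0.57 with the length trend removed, 0.61 with that and the block, 0.86 with counts halved (chosen after seeing the data) and 0.78 to 0.95 with a library left out. The shares of counts were 1.12% (IP) and 0.61% (input) without RN7SL, RMRP and mitochondrial genes, and the summed FPKM of 1719 in the IP and 799 in the input became 4575 and 631 as TPM. Among genes named in the text, signs turned for ADAM10 with the length trend removed (-0.37, with or without the block), for ADAM22 with the length trend removed (-0.25) and for ADAM19 with total counts (0.036). Leaving out 1 library at a time gave -0.023 to 1.85 for TIMP3, -1.10 to 0.92 for ADAMTS8 and -1.11 to 0.67 for MMP13. The cause was not tested. Of 26 genes named by rule, 14 kept direction and call under all 13 alternatives.

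Deviations of same-numbered libraries were not correlated across genes (0.000153). This value cannot show whether an IP and the input of the same number were prepared together. With the replicate block, 38 matrix genes were called higher, 1 was called lower and the median was 0.78.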
